A study of Mus musculus with 6 samples.

Results

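The genes examined here were 9 genes of intestinal sugar handling: the disaccharidase genes Sis, Lct, Mgam and Treh, the sugar transporter genes Slc5a1, Slc2a2 and Slc2a5, and the sugar metabolism genes Khk and G6pc. They were chosen by symbol, and all 9 were found among the 12397 genes with a usable row in a table of 22700 rows. The table holds RNA-seq of mucosa from the middle of the small intestine of C57BL/6 mice, 1 library per mouse. K79S, K82S and K86S are from 3 alk-SMase KO mice, while W83S, W89S and W90S are from 3 WT mice. In the KO mice exon 2 of the alk-SMase gene, Enpp7, was removed through Cre and loxP sites, which shifts the reading frame, and all mice ate standard pellets. The study describes the mice as matched pairs, but the labels do not say which mice belong together, and the comparisons below are unpaired. Age, sex and the promoter that drove Cre are not given in the sources used here. The comparison asks whether loss of this sphingomyelin-hydrolysing enzyme of the brush border goes with a change in the transcripts for sugar digestion and uptake.

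Dietary starch and sugars reach the small intestine as oligosaccharides and disaccharides. Enzymes anchored in the brush border of villus enterocytes split them into glucose, galactose and fructose. Glucose and galactose enter the cell with sodium through SGLT1, fructose enters through GLUT5, and hexoses leave on the blood side through GLUT2. Part of the fructose is phosphorylated by ketohexokinase inside the enterocyte, and glucose-6-phosphatase frees glucose from its phosphate. Lactase is known for its fall after weaning and for its jejunal peak along the gut.

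All values are FPKM, fragments scaled to transcript length and to the mapped fragments of the library. Levels of different genes can thus be compared within a library. Between libraries FPKM also depends on what else each library holds, so such comparisons are less certain. Where 3 values are given for a genotype, they stand in the order K79S, K82S, K86S for KO and W83S, W89S, W90S for WT. In the deposited table the gene identifiers stand beside the values of other genes, and every value here rests on identifiers that were put back on their own rows by rank. After this step values with at most 6 decimals, the mark of a gene with 1 transcript, made up 99.7% of 3649 genes with a single annotated transcript and 5.80% of 8748 genes with several, against 33.9% and 34.3% in the order of the deposited table. These decimals were also used to set the ranks, so they are no independent check. Ddx3y and Eif2s3y, genes of the Y chromosome, were listed at 0.0279 and 0 FPKM in K79S and lay between 2.93 and 8.16 FPKM in the other 5 libraries, so K79S differed from them in Y-linked transcripts.

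The libraries were not alike in ways that the genotype labels do not give. FPKM summed to between 393152 (K79S) and 495362 (W89S) per library, and 20061 to 21679 rows were above 0. Enpp7 had 605, 129 and 669.7 FPKM in KO mice and 406, 667 and 495 FPKM in WT mice. A value over all exons does not show whether exon 2 is missing, and reads of single exons were not examined. The genotype labels were thus not tested, nor was the reason why only K82S of the KO libraries lay below the WT libraries. The 8 stomach marker genes with a usable row summed to 41954 FPKM in W83S and to at most 6.22 FPKM in each other library, and the 4 pancreatic acinar genes to 2343 FPKM in W83S and at most 2.49 FPKM elsewhere. K82S was the library that limma's array weights trusted least, with a weight of 0.302 against 0.968 to 1.93 for the others. Epithelial genes were abundant in every library, with a sum of 8366 to 12423 FPKM over Epcam, Vil1, Krt20 and 7 others. A bulk library cannot tell fewer enterocytes from less RNA of a gene in each enterocyte.

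The 9 genes are protein-coding genes on 7 chromosomes of the mm10 genome (GRCm38, GENCODE M21). Sis lies at chr3:72888557-72967863 on the minus strand with up to 48 exons, Lct at chr1:128284756-128328318 on the minus strand with up to 17 exons, and Mgam at chr6:40628831-40769123 on the plus strand with up to 48 exons. Treh lies at chr9:44673233-44686305, Slc5a1 at chr5:33104219-33162870, Slc2a2 at chr3:28697903-28731359, Slc2a5 at chr4:150119283-150144169, Khk at chr5:30921431-30931248 and G6pc at chr11:101367561-101377903, each on the plus strand. Treh overlaps Phldb1 on the other strand, Slc2a2 overlaps an antisense gene, and Slc5a1 overlaps 2 processed pseudogenes. The handling of strand is not given in the sources used here, so reads of these overlaps cannot be assigned with certainty.

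Promoters of 4 members are shown, because Slc5a1 and Slc2a2 had the most similar levels across the libraries of any pair of members, and Sis and Lct the least similar. Each line gives the 250 bases before the RefSeq start (GRCm38.p6) on the strand of the gene, with matches to 6 short motifs in capitals.
Sis (chr3:72967864-72968113, minus strand): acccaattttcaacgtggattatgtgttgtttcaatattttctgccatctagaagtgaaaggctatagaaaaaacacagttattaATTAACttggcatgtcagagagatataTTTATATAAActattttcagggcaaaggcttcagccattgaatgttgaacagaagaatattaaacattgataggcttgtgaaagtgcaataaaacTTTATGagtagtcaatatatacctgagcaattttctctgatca
Lct (chr1:128328319-128328568, minus strand): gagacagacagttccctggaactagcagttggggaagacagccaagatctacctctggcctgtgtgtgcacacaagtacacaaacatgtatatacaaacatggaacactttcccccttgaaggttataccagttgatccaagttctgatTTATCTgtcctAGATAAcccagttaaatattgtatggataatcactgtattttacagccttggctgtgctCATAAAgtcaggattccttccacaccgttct
Slc5a1 (chr5:33103969-33104218, plus strand): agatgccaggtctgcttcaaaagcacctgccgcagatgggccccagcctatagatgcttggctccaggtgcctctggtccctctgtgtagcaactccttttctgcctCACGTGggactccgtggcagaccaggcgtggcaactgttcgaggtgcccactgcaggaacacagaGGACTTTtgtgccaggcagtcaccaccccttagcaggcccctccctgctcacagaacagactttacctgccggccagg
Slc2a2 (chr3:28697653-28697902, plus strand): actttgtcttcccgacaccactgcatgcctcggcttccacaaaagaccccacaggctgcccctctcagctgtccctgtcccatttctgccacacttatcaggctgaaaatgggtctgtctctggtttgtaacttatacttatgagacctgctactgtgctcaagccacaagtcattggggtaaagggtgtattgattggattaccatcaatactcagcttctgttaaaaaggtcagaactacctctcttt

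The motifs, searched on both strands, were GTTAAT for HNF1 (a half-site), TTTATG for CDX, AGATAA for GATA factors, AAAGTCC for HNF4, CACGTG for E-box factors and TATAAA. Of 32851 promoters of this length in the table, 6.43% held the first, 10.8% the CDX motif, 9.99% the GATA motif, 3.58% the HNF4 motif, 6.02% the E-box and 12.4% TATAAA. The Sis window held 1 HNF1 half-site, 1 CDX motif and 2 overlapping matches to TATAAA, and the Lct window 2 GATA motifs and 1 CDX motif. The Slc5a1 window held 1 E-box and 1 HNF4 motif, and the Slc2a2 window held 0 of these letters. Among the promoters of all 9 members, 3 held the HNF1 half-site, 2 the CDX motif, 2 the GATA motif, 2 the HNF4 motif, 3 the E-box and 3 TATAAA. Such matches describe the sequence and do not show binding.

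Sucrase-isomaltase, encoded by Sis, splits sucrose and the branch points of starch, and Sis was the most abundant of the disaccharidase genes by mean FPKM. Its level was 397, 323 and 604 FPKM in KO mice and 457, 507 and 718 FPKM in WT mice. The lowest library was a KO library and the highest a WT library, and the groups overlapped. Maltase-glucoamylase, encoded by Mgam, releases glucose from maltose and short starch chains. Mgam had 367, 183 and 489 FPKM in KO mice and 295, 265 and 336 FPKM in WT mice. The KO values of Mgam spanned the narrower WT range on both sides.

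Lct encodes lactase, which splits lactose, and its KO libraries differed from each other more than those of any other member. Lct had 456, 76.3 and 489.8 FPKM in KO mice, against 243, 163 and 285 FPKM in WT mice. K79S and K86S lay above every WT library and K82S below every WT library. Trehalase, encoded by Treh, splits trehalose, a sugar of fungi and insects. Treh had 217, 86.6 and 269 FPKM in KO mice and 136, 118 and 214 FPKM in WT mice. The same arrangement was seen for Treh, although K79S exceeded W90S only narrowly.

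SGLT1, encoded by Slc5a1, takes up glucose and galactose with sodium at the brush border, and Slc5a1 had the highest mean of the 9 genes. It had 1102, 623 and 1506 FPKM in KO mice and 1130.3, 902 and 1468.5 FPKM in WT mice. GLUT2, encoded by Slc2a2, carries glucose, galactose and fructose across the basolateral membrane. Slc2a2 had 85.0, 23.5 and 139 FPKM in KO mice and 105, 57.4 and 133 FPKM in WT mice. GLUT5, encoded by Slc2a5, is the brush border fructose transporter. Slc2a5 had 92.6, 35.8 and 95.6 FPKM in KO mice and 67.1, 44.0 and 88.1 FPKM in WT mice. For all 3 transporter genes K82S was the lowest library and K86S the highest, with W89S the lowest of the WT libraries.

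Ketohexokinase, encoded by Khk, phosphorylates fructose. Khk had 218, 138 and 279.6 FPKM in KO mice and 278, 245 and 379 FPKM in WT mice. Glucose-6-phosphatase, encoded by G6pc, is best known from liver and kidney. G6pc was the weakest member, with 9.997, 5.29 and 17.4 FPKM in KO mice and 10.7, 5.38 and 16.6 FPKM in WT mice. For G6pc K82S and W89S were nearly equal and both lay below the other 4 libraries, and for Khk only K86S of the KO libraries lay within the WT range.

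**Figure D1:**
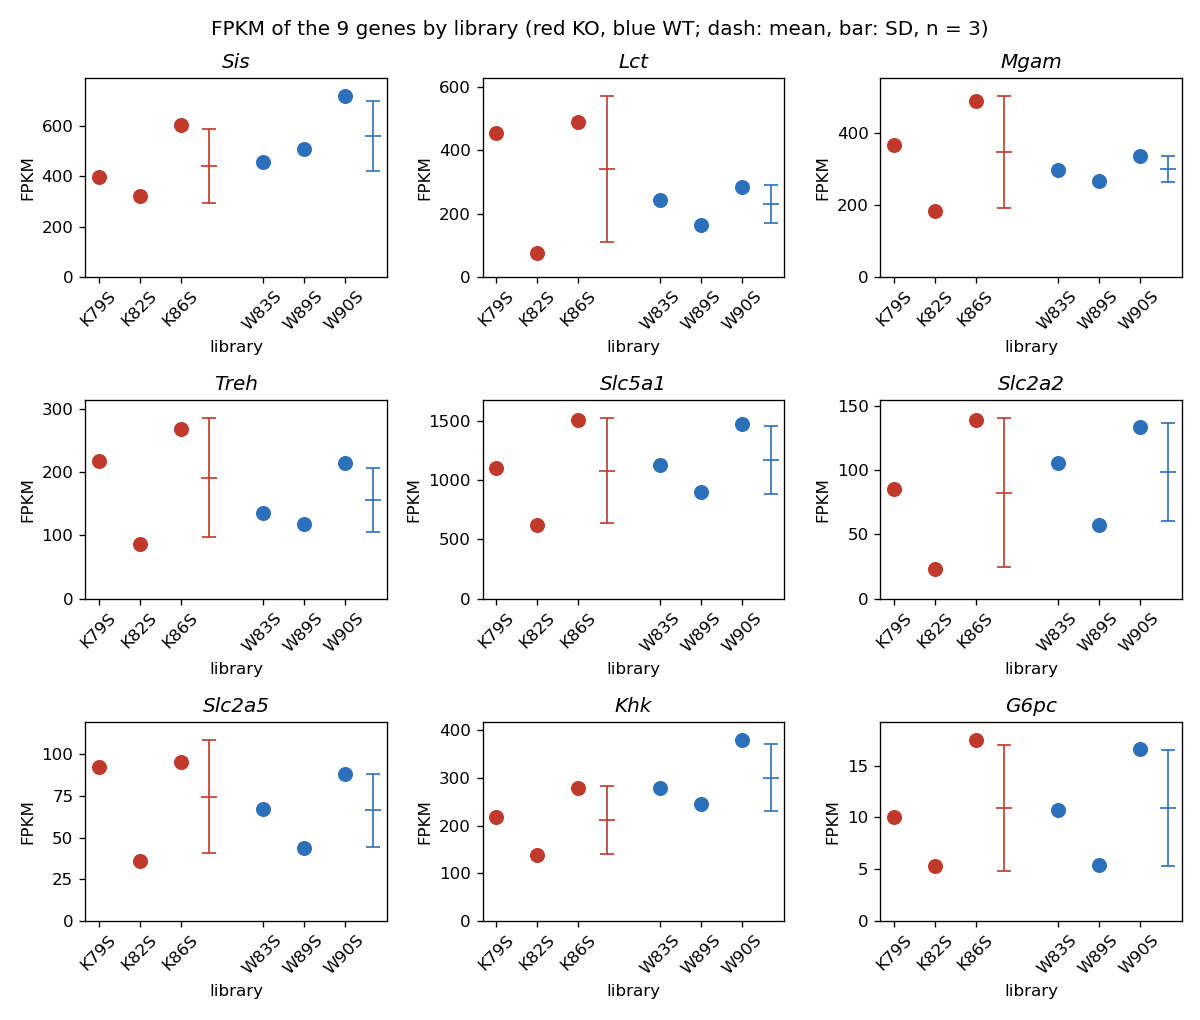
FPKM (vertical axes, linear and from 0) of the 9 genes in the 6 libraries (horizontal axes), with KO in red and WT in blue. The dash and bar beside each group are its mean and SD (n = 3), and in each panel K82S is the lowest point and K86S the highest KO point.

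By mean FPKM over the 6 libraries the order was Slc5a1, Sis, Mgam, Lct, Khk, Treh, Slc2a2, Slc2a5 and G6pc. Slc5a1 exceeded Sis in 6 of 6 libraries, with a mean log2 ratio of 1.15 ± 0.25 (SD over libraries, n = 6), and Sis exceeded Mgam in 6 of 6 (0.65 ± 0.38). Mgam and Lct could not be ordered beyond their spread (0.36 ± 0.55, Mgam higher in 4 of 6), nor could Lct and Khk (-0.03 ± 0.78, Lct higher in 2 of 6) or Slc2a2 and Slc2a5 (0.24 ± 0.50, Slc2a2 higher in 4 of 6). Khk lay above Treh in 6 of 6 libraries (0.61 ± 0.47), Treh above Slc2a2 in 6 of 6 (1.05 ± 0.53), and Slc2a5 above G6pc in 6 of 6 (2.75 ± 0.32). Together the 9 genes summed to 2944, 1495 and 3889 FPKM in KO mice and to 2722, 2306 and 3637 FPKM in WT mice. That is 0.749%, 0.321% and 0.923% of the summed FPKM of the KO libraries and 0.563%, 0.465% and 0.768% of that of the WT libraries. The summed level was lowest in a KO library and highest in a KO library.

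The 9 genes varied together from library to library, with high and low libraries in both genotypes. K82S was the lowest of the 6 libraries for 9 of 9 members, while it was the lowest for 13.1% of all 13089 rows tested. K86S was the highest KO library for 9 of 9 members (24.1% of all rows), and W89S the lowest WT library for 8 of 9 (32.3% of all rows), with Sis as the exception. In K82S 7 of 9 members stood below 0.5 times the mean of K79S and K86S, as did 4.71% of all rows tested. That ratio was 0.161 for Lct, 0.210 for Slc2a2, 0.357 for Treh, 0.381 for Slc2a5, 0.386 for G6pc, 0.427 for Mgam, 0.478 for Slc5a1, 0.556 for Khk and 0.645 for Sis. The median of this ratio over all rows was 1.14. The highest library exceeded the lowest by 2.22-fold (Sis) to 6.42-fold (Lct), where the median of the 4541 rows with a mean of at least 10 FPKM and no 0 was 1.74-fold. Of those rows 29.4% reached at least 2.2-fold.

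**Figure D2:**
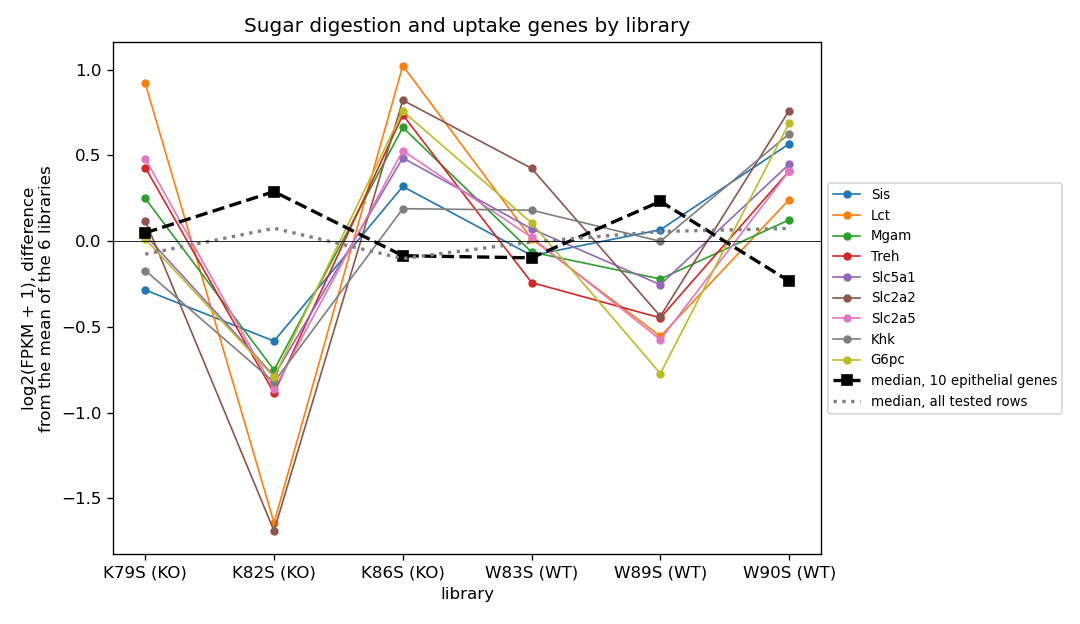
Deviation of log2(FPKM + 1) from each gene's mean over the 6 libraries (vertical axis) by library (horizontal axis), with 1 line per member, a dashed line for the median of 10 epithelial genes and a dotted line for the median of all 13089 rows. The members dip in K82S (median -0.82) and W89S (median -0.44), where the epithelial genes stand at 0.29 and 0.23. The median of 12 genes of mature enterocytes, not drawn, was also low there, at -0.45 and -0.34. The lines join libraries only to guide the eye.

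Across the 6 libraries the 36 pairs of members had Pearson correlations of log2(FPKM + 1) from 0.54 to 0.98, with a median of 0.89, and 25 pairs were above 0.8. The closest pair was Slc5a1 with Slc2a2, the entry and exit of glucose, at 0.98, and the least similar was Sis with Lct at 0.54. These points are 6 libraries that share their depth and composition between genes, so the correlations describe these libraries and carry no test. In the promoters printed above the close pair shared none of the 6 motifs, and the distant pair shared the CDX motif. Another close pair, Lct with Mgam (0.97), shared the GATA motif. The printed pairs were picked by these correlations, so they cannot show whether shared motifs go with similar levels.

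Marker genes of several cell types also differed between these libraries. The 12 genes of mature enterocytes had their lowest sums in K82S (25337 FPKM) and W89S (34273 FPKM), while the other 4 libraries lay at 36214 to 43506 FPKM. Apoa1, the most abundant of them by mean FPKM and an apolipoprotein of chylomicrons, had 11161 FPKM in K82S and 13448 to 14702 FPKM elsewhere. Fabp1, Fabp2 and Gata4 were named after their values were seen. Fabp1, a fatty acid binding protein of the proximal gut, had 972 and 1255 FPKM in K82S and W89S and 1576 to 5415 FPKM in the others. Fabp2, a fatty acid binding protein found along more of the gut, was also lowest in K82S, at 5432 FPKM, but was highest in W89S, at 11224 FPKM. Gata4, a transcription factor of the duodenum and jejunum that fades towards the ileum, had 11.3 and 25.4 FPKM in K82S and W89S, and 34.3 to 47.2 FPKM in the other libraries. Of 4 distal genes only Osr2 had a usable row, with 25.5 and 35.3 FPKM in K82S and W89S, 35.2 and 17.3 FPKM in K79S and K86S and 12.4 and 18.9 FPKM in W83S and W90S. The 5 crypt genes tested summed to 203, 1511 and 412 FPKM in KO mice and to 775, 3476 and 2407 FPKM in WT mice, led by the Paneth cell genes Lyz1 and Defa17. The 6 goblet cell genes summed to 13556 FPKM in K82S and 13318 FPKM in W89S, against 7019.6 to 8578 FPKM in the other libraries, mostly from Tff3 and Zg16. The mucin gene Muc2 went the other way in W89S, at 7.03 FPKM against 68.3 to 160 FPKM elsewhere, and Fcgbp had 400.3 and 397 FPKM in K82S and W89S, within its range of 291 to 894 FPKM in the others. Of the other proximal markers, all weak, Onecut2 was also lowest in these libraries, at 0.380 and 0.0962 FPKM against 0.815 to 1.53 FPKM. Slc40a1 was not, with 5.11 and 1.31 FPKM in them against 0.529 to 7.08 FPKM. Cybrd1 lay between 0.122 and 0.503 FPKM outside W83S, where it had 6.05 FPKM. The part of the enterocyte, goblet and crypt cell shares and of the position along the gut in the levels of the 9 genes was not tested.

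Between KO and WT, 0 of the 9 genes passed the thresholds (adjusted p under 0.05 from limma on log2(FPKM + 1), with at least a 1.5-fold change either way), and 1 of all 13089 rows did (0.00764%). At an unadjusted p under 0.05 from limma 0 of 9 members passed, against 12.5% of all rows. For all 9 members KO and WT libraries overlapped, where 17.2% of all rows had no overlap, 5.9% with KO above and 11.3% with KO below. The log2 fold change was above 0 for 4 members and below 0 for 5, with a median of -0.02 beside -0.06 over all rows. With 3 libraries per genotype the smallest p of an exact two-sided permutation test is 0.1, and its p lay between 0.3 (Khk) and 1 (Lct) for the members.

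Among the disaccharidases, Sis averaged 441 ± 146 FPKM in KO mice against 560.4 ± 139 in WT mice (SD, n = 3). Its log2 fold change was -0.37 with a 95% interval of -1.09 to 0.35 (adjusted p = 0.618 from limma). Lct averaged 341 ± 229.5 FPKM in KO mice against 230.2 ± 61.6 in WT mice, which is 0.20 as a log2 fold change (-1.52 to 1.92, adjusted p = 0.921 from limma). This interval runs from 0.349 to 3.78 as a fold change, so neither a loss nor a gain of lactase mRNA of that size can be told from these libraries. Mgam, with 346 ± 154 and 299 ± 36.0 FPKM, and Treh, with 191 ± 93.8 and 156 ± 51.2 FPKM, had log2 fold changes of 0.11 (-0.77 to 0.99) and 0.19 (-0.91 to 1.28). The SD of the KO group was larger than that of the WT group for all 9 members, though only narrowly for Sis and Khk. The share of all rows with a larger SD in KO was not counted.

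For the transporters the differences were also within the spread between mice. Slc5a1 averaged 1077 ± 442 FPKM in KO mice against 1167 ± 285 in WT mice (log2 fold change -0.18, interval -1.06 to 0.70). Slc2a2 had 82.4 ± 57.7 and 98.6 ± 38.3 FPKM (-0.50, interval -2.07 to 1.08), and Slc2a5 had 74.7 ± 33.7 and 66.4 ± 22.0 FPKM (0.10, interval -0.96 to 1.15). Khk averaged 212 ± 70.9 FPKM in KO mice against 300.5 ± 69.7 in WT mice. Its log2 fold change, the largest in size among the 9 with all 6 libraries on the log2(FPKM + 1) scale, was -0.54 (-1.28 to 0.21, adjusted p = 0.472 from limma). G6pc had 10.9 ± 6.12 and 10.9 ± 5.60 FPKM (-0.02, interval -1.19 to 1.16). Except for Sis and Khk, whose intervals leave out a 1.5-fold rise, the interval of each member includes both a 1.5-fold rise and a 1.5-fold fall.

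**Figure D3:**
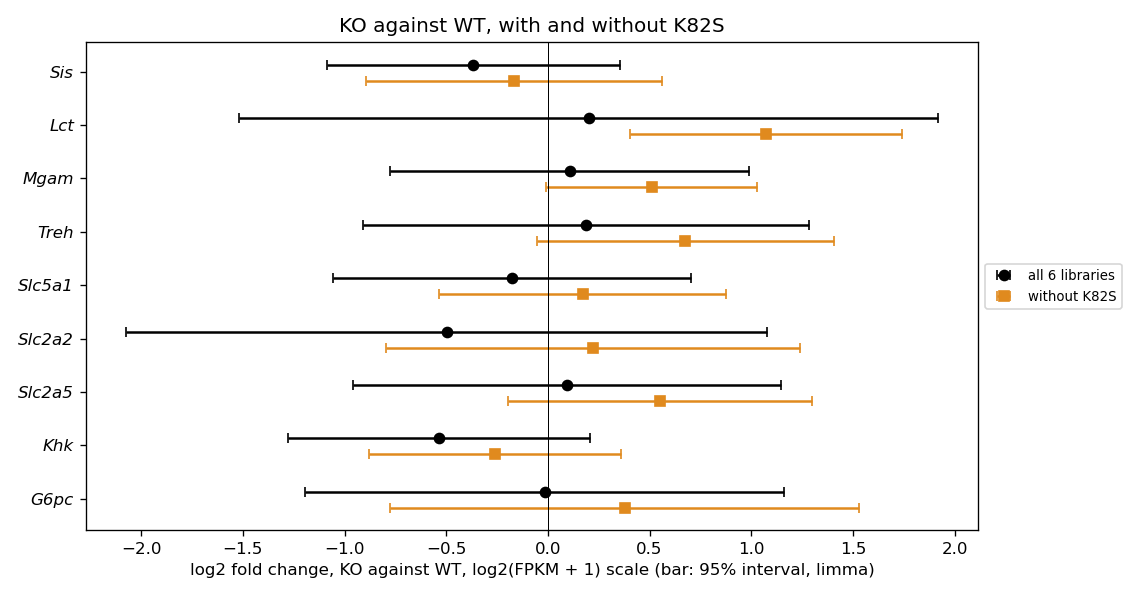
Fold change between KO and WT in log2(FPKM + 1) units (horizontal axis) for each gene (vertical axis), with 95% intervals from limma, for all 6 libraries (black circles) and without K82S (orange squares). Each black interval includes 0, and without K82S that of Lct (0.40 to 1.74) does not.

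The direction of several genes rested on single libraries. Without K86S the log2 fold change was -0.26 for Lct, -0.20 for Mgam, -0.13 for Treh and -0.14 for Slc2a5, all above 0 with it. Without K79S it was -0.21 for Lct and -0.12 for Slc2a5, and without W89S -0.03 and -0.17. G6pc turned above 0 without W83S (0.03) or W90S (0.33), and Slc5a1 came to 0.0028 without W90S. Without K82S the log2 fold change was above 0 for 7 of 9 members, with a median of 0.38 beside -0.09 over all rows. This was not particular to the members, as the median was 0.44 for the 12 enterocyte genes and 0.41 for the further hexose transport genes described below. It was 0.09 for the regulators, -0.08 for fructose breakdown and gluconeogenesis and -0.16 for glycolysis and galactose use. Without K82S 0 of 9 members passed, against 9.28% of 12764 rows (0.4% higher and 8.88% lower in KO). At an unadjusted p under 0.05 from limma 1 of 9 members passed, Lct, against 25.7% of all rows. Its log2 fold change was 1.07 (0.40 to 1.74, adjusted p = 0.0675 from limma), a fold change of 2.10. Mgam, Treh and Slc2a5 had 0.51, 0.68 and 0.55 (adjusted p = 0.203, 0.223 and 0.314 from limma), and Slc5a1, Slc2a2 and G6pc, all below 0 with it, had 0.17, 0.22 and 0.38. Sis and Khk were below 0 with and without K82S, at -0.17 and -0.26 without it. In 4 members, Lct, Mgam, Treh and Slc2a5, both K79S and K86S lay above all WT libraries, as in 11.8% of all rows, and in 0 members did both lie below, as in 32.1% of all rows. K82S was singled out after the data were seen, and it is 1 of only 3 KO mice. With W83S, the library with stomach genes, left out as well, 0 of 9 passed (8.88% of all rows, 0.336% higher and 8.55% lower in KO), and Lct had a log2 fold change of 1.13 (adjusted p = 0.117 from limma).

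Ratios between genes of the same library do not depend on its scaling. Lct stood to Sis as 1.15, 0.236 and 0.811 in K79S, K82S and K86S and as 0.532, 0.322 and 0.396 in W83S, W89S and W90S, so that K79S and K86S lay above the WT libraries and K82S below. Of the summed FPKM of the 4 disaccharidase genes, Lct held 31.7%, 11.4% and 26.5% in the KO libraries and 21.5%, 15.5% and 18.3% in the WT libraries, and Sis held 27.6%, 48.3% and 32.6% against 40.4%, 48.2% and 46.2%. Mgam, in contrast, kept to between 21.7% (W90S) and 27.3% (K82S), and Treh to between 11.2% (W89S) and 15.1% (K79S). The share of Sis was nearly the same in K82S and W89S, a KO and a WT library.

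**Figure D4:**
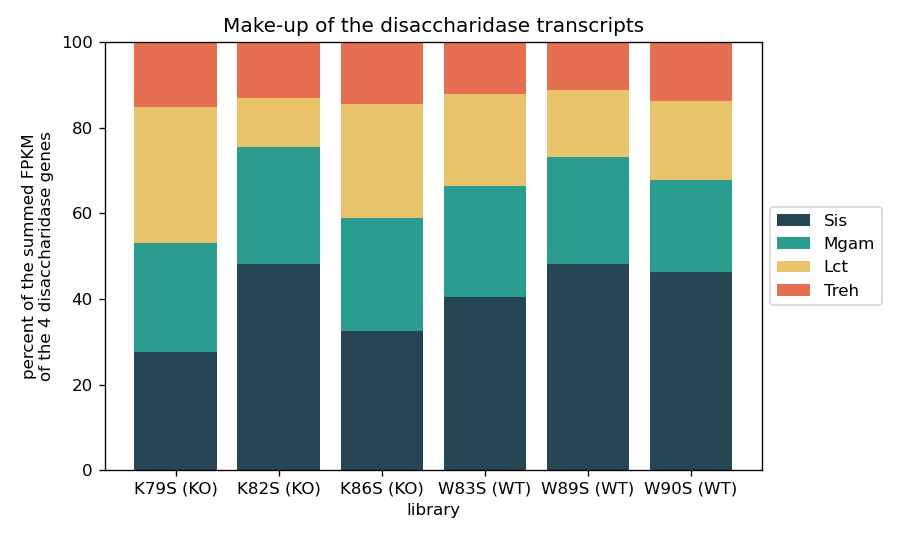
Percent of the summed FPKM of Sis, Mgam, Lct and Treh held by each gene (vertical axis, stacked to 100) in each library (horizontal axis). The Lct segment is largest in K79S (31.7%) and K86S (26.5%) and smallest in K82S (11.4%).

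The ratio of GLUT5 to SGLT1 transcripts was 0.0840, 0.0575 and 0.0635 in K79S, K82S and K86S and 0.0593, 0.0488 and 0.0600 in W83S, W89S and W90S. The ratio of GLUT2 to SGLT1 transcripts was lowest in K82S, at 0.0378, and lay between 0.0636 and 0.0930 elsewhere. For all 5 ratios given here (Mgam, Lct and Treh to Sis, Slc2a2 and Slc2a5 to Slc5a1) KO and WT overlapped. The exact two-sided permutation test gave p between 0.2 and 0.6, and 0.7 for each after Benjamini-Hochberg adjustment over the 7 ratios tested, a design in which 0.1 is the smallest raw p. The log2 difference was 0.47 for Mgam to Sis, 0.57 for Lct to Sis, 0.55 for Treh to Sis, -0.33 for Slc2a2 to Slc5a1 and 0.27 for Slc2a5 to Slc5a1.

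Other genes of sugar handling were followed in 4 lists of 69 genes, of which 59 were tested and 0 passed. At an unadjusted p under 0.05 from limma 4 of them passed, against 12.5% of all rows. For 6 of the 59 the genotypes did not overlap and KO was lower, as in 11.3% of all rows. Fbp2, G6pc3, Galk1, Ldha and Tpi1, given below, are among these 6. For 1 of the 59 the genotypes did not overlap and KO was higher, as in 5.9% of all rows. For fructose breakdown and gluconeogenesis 11 of 12 genes were tested, 7 with a log2 fold change below 0 and 4 above. The median of the 11 was -0.37 beside -0.06 over all rows, and the share of all rows below 0 was not counted. Tkfc, which phosphorylates the glyceraldehyde from fructose, had 144 to 264 FPKM in KO and 219 to 318 FPKM in WT (log2 fold change -0.31). Fbp2, a fructose bisphosphatase, lay lower in the KO libraries (213 to 261.2 FPKM) than in the WT libraries (261.6 to 355 FPKM), by a margin of under 1 FPKM (-0.37, adjusted p = 0.434 from limma).

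Pck1, the cytosolic enzyme that starts gluconeogenesis, had 248, 53.1 and 204 FPKM in KO mice and 67.9, 237 and 56.8 FPKM in WT mice. K79S, W89S and K86S were its high libraries, and K82S its lowest. Fbp1, the other fructose bisphosphatase, ranged from 7.57 FPKM (K82S) to 39.2 FPKM (W90S), and Slc37a4, which carries glucose 6-phosphate into the endoplasmic reticulum, from 19.4 FPKM (K82S) to 63.8 FPKM (W90S). G6pc3, a relative of G6pc expressed in many tissues, had 3.20 to 5.83 FPKM in KO and 6.72 to 8.84 FPKM in WT (-0.62, adjusted p = 0.393 from limma). Sord, of the polyol pathway, had log2 fold change 0.18, Pcx, pyruvate carboxylase, 0.06, Glyctk, glycerate kinase, 0.13, and Akr1b3, aldose reductase, -0.49. Each was within the spread between mice with all 6 libraries. Without K82S that of Akr1b3, a weak gene of 0.561 to 2.41 FPKM, was -0.76 (adjusted p = 0.067 from limma). Glyctk then had 0.39 (adjusted p = 0.182 from limma).

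Of the further hexose transport genes 12 of 16 were tested, 6 with a log2 fold change above 0 and 6 below. The median of the 12 was -0.02 beside -0.06 over all rows. Abundant ones by mean FPKM were Atp1b1, a subunit of the sodium pump that keeps up the sodium gradient used by SGLT1, and Slc5a4a and Slc5a11, relatives of Slc5a1. Atp1b1 had 966, 628 and 1183 FPKM in KO mice and 815, 701 and 1020.0 FPKM in WT mice (log2 fold change 0.10). Slc5a4a had 86.9, 27.4 and 86.5 FPKM in KO mice and 61.9, 50.6 and 89.9 FPKM in WT mice, and Slc5a11, a myo-inositol transporter, had 87.0, 24.3 and 76.4 FPKM against 58.6, 46.4 and 70.3 FPKM. All 3 were lowest in K82S and, among WT, in W89S, as 8 of the 9 members were. Slc5a4a has a near copy, Slc5a4b, so reads could be split between them.

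Of the genes of glycolysis and galactose use 23 of 25 were tested, 18 with a log2 fold change below 0 and 5 above. The median of the 23 was -0.17 beside -0.06 over all rows, and the share of all rows below 0 was not counted. Ldha, lactate dehydrogenase, had 327 to 382 FPKM in KO and 443 to 535 FPKM in WT (log2 fold change -0.41, adjusted p = 0.395 from limma), and Tpi1, triosephosphate isomerase, 184 to 246 and 247 to 289.7 FPKM (-0.42, adjusted p = 0.397 from limma). Pkm, pyruvate kinase, had 164 to 261.2 and 259.8 to 327 FPKM (-0.55), and Pklr, the pyruvate kinase of liver and red cells, 119 to 167 and 137 to 176 FPKM (-0.13). Galk1, which phosphorylates the galactose freed by lactase, was chosen after its values were seen. It had 20.7, 16.3 and 21.9 FPKM in KO mice and 36.2, 29.8 and 42.8 FPKM in WT mice, with all KO libraries below all WT libraries, as in 11.3% of all rows. Its log2 fold change was -0.85 (adjusted p = 0.393 from limma), and -0.73 without K82S (adjusted p = 0.0677 from limma).

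Among 16 regulators and sugar sensors 13 were tested, with a median log2 fold change of 0.14 beside -0.06 over all rows. Hnf4a, a factor of enterocyte differentiation, had 154 to 235 FPKM in KO and 129 to 215 FPKM in WT (0.33), and Klf4, a factor of surface epithelium, 158 to 214 and 94.9 to 168 FPKM (0.51). Cdx2, the intestinal identity factor, had 87.8 to 162 and 62.6 to 157 FPKM (0.29), and Txnip, a gene that responds to glucose, 62.6 to 108 and 32.8 to 109 FPKM (0.19). Cdx2 and Hnf4a were not low in K82S, at 113 and 235 FPKM, nor in W89S, at 157 and 215 FPKM. Mlxipl, the sugar-sensing factor ChREBP, was named after its values were seen. It was lowest in K82S, at 9.90 FPKM, and had 19.4 to 31.6 FPKM in the other libraries. Prdm1, a repressor of adult enterocyte genes in the suckling gut, was also chosen after its values were seen and was weak. It had 2.56, 3.64 and 2.55 FPKM in KO mice and 1.62, 1.25 and 1.21 FPKM in WT mice, with KO above WT as in 5.9% of all rows (log2 fold change 0.72, adjusted p = 0.393 from limma). Of 6 immune marker genes 3, Cd3e, Cd8a and Cd74, also had all KO libraries above all WT libraries. Which cells held the Prdm1 transcripts was not tested.

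The genes with the most similar profiles over the 6 libraries were sought among tested genes with a mean of at least 10 FPKM. Slc2a2 was closest to Ugt2a3 (Pearson r = 0.999, 51.8, 16.1 and 75.0 FPKM in KO mice and 58.5, 36.7 and 74.1 FPKM in WT mice). Lct was closest to Sgpl1, sphingosine-1-phosphate lyase (r = 0.997), with 106, 43.2 and 118 FPKM in KO mice and 78.95, 62.4 and 88.99 FPKM in WT mice. G6pc was closest to Ugt1a1 (r = 0.993). The 3 nearest genes were Snx20, Gpd1 and Fam136a for Sis, Fmo5, Entpd7 and Sec24d for Mgam, 2010008C14Rik, Mfsd4b2 and Atp1b1 for Treh, and Pipox, Plpp1 and Hadh for Slc5a1. For Slc2a5 they were Lman1, Copg1 and Slc2a7, another hexose transporter gene, and for Khk Uqcrc1, Hagh and Taco1. Creb3l2 and Sec31a followed for Lct, Adipor2 and Ddb1 for Slc2a2, and Cox15 and Mttp for G6pc. The r of these 27 genes ran from 0.973 to 0.999. With 6 libraries and 4527 candidate genes these values are a description only.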

How the data were processed

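Mucosal RNA of the mid small intestine (3 KO and 3 WT mice) was sequenced by the authors as 50 bp single-end reads, trimmed with trim-galore, mapped to mm10 with HISAT2 and quantified with StringTie. The deposited values are FPKM, scaled by the authors to gene length and mapped fragments. Tool versions, annotation and strand setting are not given in the sources used here. The authors describe an edgeR normalization, and whether it was applied to the deposited values is not stated. FPKM keeps no read count, so the depth behind a value is unknown and precision rests on the spread between mice. 0 columns could not be mapped to a sample.

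Identifiers were ranked by the K79S value beside them and rows by W83S, both descending, and joined at equal rank plus an offset fixed for each of 12 stretches of ranks. Genes outside these stretches were not analysed here. This repair was set up in earlier work on these data, and the 9 genes, the lists and the tests were chosen with earlier results of these data known.

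Rows with FPKM of at least 1 in at least 2 libraries were kept. The model for log2(FPKM + 1) came from limma 3.58.1 under R 4.3.3 (trended variance, all 6 libraries, no covariate, Benjamini-Hochberg adjustment over all rows kept). Its script was run on simulated data, which checks the code and not the results given here. Fold changes on this scale understate those of weak genes. Exact permutation tests used scipy 1.17.1 in Python 3.11.15. A count model does not apply to FPKM. Named genes were the 9 members, all tested genes of fructose breakdown and gluconeogenesis, the 4 with the highest mean FPKM in each other list, the 3 most similar genes of each member, and those stated to be chosen later. From the lists 2 genes, and 2 ratios to 1 of them, are not reported here. Alternatives were pseudocounts, filters, scalings, variance models, array weights and leaving out libraries. The mice of the same genotype are separate animals. P-values set the difference between genotypes against the spread between these animals, which limma estimates with help from all rows kept.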

Additional observations from a re-analysis of the deposited data

How the results depend on the processing

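None of the 9 members and none of the 59 companion genes passed under any of the 18 alternatives to the fit. Of the 162 fold changes of members under them, 142 kept their direction and 20 reversed. For G6pc the log2 fold change was 0.073 with median ratio scaling, 0.045 with quantile normalization and 0.025 with array weights. Without K82S and W83S together, an alternative chosen after seeing the data, it was 0.16 for Slc5a1, 0.31 for Slc2a2 and 0.43 for G6pc. When each library was left out in turn the log2 fold change ranged from -0.41 to 0.38 for G6pc, -0.26 to 1.07 for Lct, -0.17 to 0.55 for Slc2a5, -0.46 to 0.17 for Slc5a1, -1.03 to 0.22 for Slc2a2, -0.20 to 0.51 for Mgam and -0.13 to 0.68 for Treh, and stayed below 0 for Sis (-0.62 to -0.17) and Khk (-0.77 to -0.26).

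Among all rows 1 passed with all libraries, 0 with a pseudocount of 0.1 or 0.01, 2 with array weights and 1111 without K82S and W83S. Leaving out each library in turn gave 0 to 1184, the highest without K82S, and the cause was not tested. The log2 ratio of Slc2a2 to Slc5a1, KO minus WT, ranged from -0.59 to 0.053 when each library was left out and was 0.15 without K82S and W83S. No paired analysis was possible because the labels do not say which mice form the matched pairs that the study describes. With 3 mice per genotype and this spread the intervals are wide.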
